A study of Mus musculus with 4 samples.

Results

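Annexins are cytosolic proteins that bind membranes carrying acidic phospholipids when calcium rises. The 8 annexin genes described here, Anxa8, Anxa1, Anxa2, Anxa4, Anxa5, Anxa6, Anxa7 and Anxa11, were looked up by Entrez gene number among the 26611 genes of a count table from mouse spleen natural killer (NK) cells. Anxa8 was picked for its higher level in knock-out (KO) cells, so its difference between genotypes is given as a description, with no test. The other 7 were taken as members of the same family, whatever their values. All 8 passed the filter on low counts that left 12723 genes for testing.

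The study addresses the role of Tcf-1, the transcription factor encoded by Tcf7, in NK cells. It compared Tcf7 KO with wild-type (WT) animals of the C57BL/6 background, with 2 libraries of each genotype and every library from its own mouse. The labels give neither the kind of Tcf7 allele nor the age or sex of the mice. From all spleens, TCRbeta- NK1.1+ NKp46+ cells were sorted that were also positive for CD11b and KLRG1, which mark mature NK cells, and their RNA was sequenced. Total counts were 28254693 and 37384979 in KO libraries 1 and 2, and 31860505 and 40175537 in WT libraries 1 and 2. Tcf7 itself stood at 11.2 and 25.0 CPM (counts relative to the TMM-scaled library total) in KO libraries, against 89.4 and 79.0 CPM in WT libraries. The 14 listed NK cell identity genes were all detected, and their summed level was 48181 and 40996 CPM in KO libraries and 46239 and 39892 CPM in WT libraries. Libraries of the same number also resembled each other across genotypes: the median log2 ratio of library 1 to library 2 was 0.397 in KO and 0.259 in WT for genes of up to 1619 bases, and -0.551 in KO and -0.401 in WT for genes of 4133 bases or more.

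Each annexin has a variable amino-terminal stretch, which sets its protein partners, and a core of repeats that binds calcium and membrane. In immune cells the family is best known for Anxa1, a mediator that dampens inflammation through formyl peptide receptors, and for Anxa5, whose binding to phosphatidylserine is used to stain dying cells. ANXA8 was described in human tissue as an inhibitor of blood clotting, is linked to late endosomes and actin, and is known for high levels in human acute promyelocytic leukaemia and in several epithelia.

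Anxa8 (Entrez gene 11752) lies on the + strand of mouse chromosome 14, chr14:34085979-34100571 in GRCm38.p6, the RefSeq form of the mm10 build. Its gene model in GENCODE M21 has 12 exons and a coding length of 981 bases, which gives 327 residues. Anxa6, which joins a second core to the first, has 26 exons and 673 residues. The remaining 6 listed annexins have 13 or 15 exons and 319 to 503 residues. Anxa7 and Anxa11 share chromosome 14 with Anxa8, but lie several megabases away from it.

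The sequence just before a gene's start shows what letters stand where transcription begins, and 4 such windows are printed because they differ in the motifs they hold. Each covers the 250 bases before an annotated RefSeq start in GRCm38.p6, read 5' to 3' on the gene's own strand, and capitals mark a motif. The windows are chr14:34085729-34085978 (+ strand) for Anxa8, chr14:20480134-20480383 (- strand) for Anxa7, chr6:86775115-86775364 (- strand) for the downstream start of Anxa4 and chr9:69453433-69453682 (+ strand) for Anxa2.
Anxa8: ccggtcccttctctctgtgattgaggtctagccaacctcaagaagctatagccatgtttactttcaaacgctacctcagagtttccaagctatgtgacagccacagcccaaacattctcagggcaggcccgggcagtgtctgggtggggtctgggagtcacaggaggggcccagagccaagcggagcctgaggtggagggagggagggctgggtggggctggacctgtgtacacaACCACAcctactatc
Anxa7: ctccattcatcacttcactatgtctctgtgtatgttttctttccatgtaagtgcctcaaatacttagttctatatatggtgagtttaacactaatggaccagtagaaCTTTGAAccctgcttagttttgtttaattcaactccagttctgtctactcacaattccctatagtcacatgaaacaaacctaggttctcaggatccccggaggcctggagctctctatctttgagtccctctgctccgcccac
Anxa4: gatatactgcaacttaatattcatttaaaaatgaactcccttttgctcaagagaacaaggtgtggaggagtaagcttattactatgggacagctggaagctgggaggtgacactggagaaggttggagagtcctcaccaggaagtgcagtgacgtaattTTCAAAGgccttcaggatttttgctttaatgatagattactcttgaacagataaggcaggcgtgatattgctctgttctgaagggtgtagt
Anxa2: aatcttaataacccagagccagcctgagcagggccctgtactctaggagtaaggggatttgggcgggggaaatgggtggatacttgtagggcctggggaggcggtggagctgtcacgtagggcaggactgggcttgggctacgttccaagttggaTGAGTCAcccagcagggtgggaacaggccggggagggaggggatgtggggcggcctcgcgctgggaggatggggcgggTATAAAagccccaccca
The motifs searched, on both strands, were CTTTGAA and CTTTGAT for TCF/LEF factors (the family of Tcf-1), TGTGGT for RUNX, AGGTGTGA for T-box, TGANTCA for AP-1 and CCGGAA for ETS factors, and TATAAA. The 2 TCF/LEF motifs share their first 6 letters. The Anxa8 window held neither TCF/LEF motif, and its only match was TGTGGT, read on the opposite strand 15 bases before the start. CTTTGAA stood 143 bases before the start in the Anxa7 window and, on the opposite strand, 91 bases before the start in the Anxa4 window. Anxa7 and Anxa4 each have another annotated start, and the windows before those starts held none of the motifs. Among 32851 RefSeq promoter windows of this length, 7.48% held at least 1 TCF/LEF motif, 14.0% held TGTGGT, 6.75% held TGANTCA and 12.4% held TATAAA. The Anxa2 window held TGANTCA 95 bases and TATAAA 17 bases before the start. Among the windows not printed, those of Anxa1 and Anxa11 held CCGGAA, which 12.0% of windows held, that of Anxa1 also held TATAAA, and that of Anxa5 held no motif searched. AGGTGTGA, found in 1.12% of windows, was in no annexin window searched. For Anxa6, Anxa3 and Anxa13 no window was searched, so nothing is said about their motifs. A match is a string of letters, not a measured binding site.

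Anxa8 was counted 6833 and 5405 times in KO libraries 1 and 2, against 450 and 468 times in WT libraries 1 and 2. After scaling, it stood at 233 and 150 CPM in KO cells and at 13.8 and 11.9 CPM in WT cells. Both KO libraries lay far above both WT libraries, and the WT libraries were close to each other. The mean was 191 ± 58.7 CPM in KO and 12.9 ± 1.36 CPM in WT (SD, n = 2 each), a 14.9-fold higher level in KO. The fitted log2 fold change, KO over WT, was 3.89 with a standard error (SE) of 0.33. Within the libraries numbered 1 the log2 ratio was 4.06, and within those numbered 2 it was 3.64. Ordered by fitted rise in KO, Anxa8 was number 29 of 12723 tested genes, and number 11 of the 9286 with a mean of at least 5 CPM. In WT libraries Anxa8 lay far above the detection limit. A count of 3, which a count of 0 allows, corresponds to 0.0942 and 0.0747 CPM there, by library totals without TMM scaling. In bulk RNA, more cells that express a gene and more RNA in each such cell cannot be told apart.

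**Figure D1:**
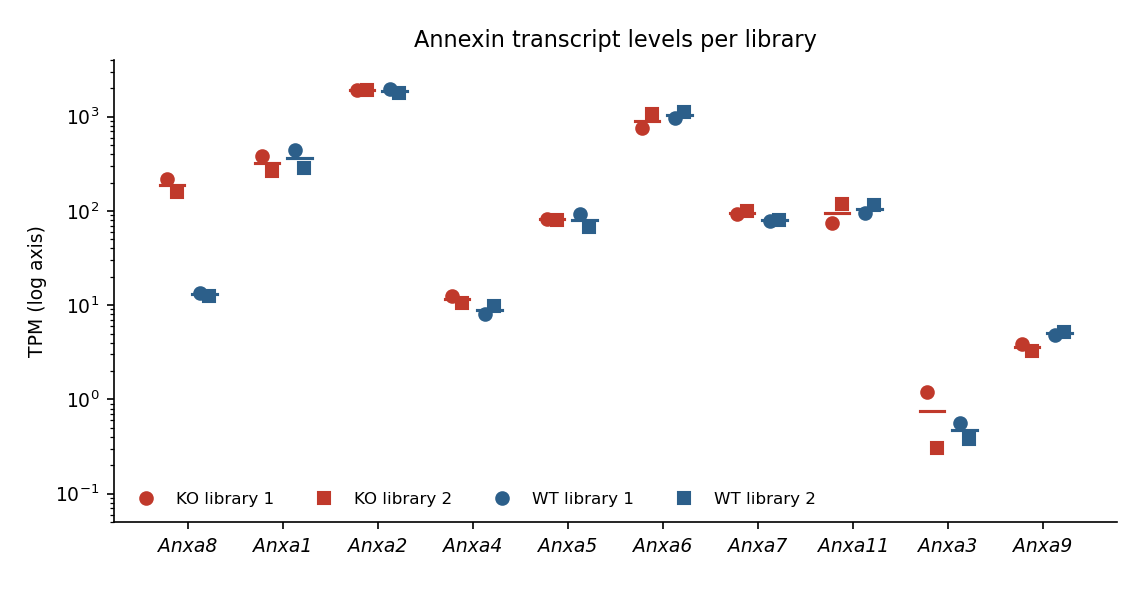
Level per gene length (TPM, log axis) of 10 annexin genes in each library, with KO libraries in red left of WT libraries in blue, circles for library 1, squares for library 2 and bars for group means. Anxa8 averaged 189 TPM in KO and 13.1 TPM in WT, and Anxa2 and Anxa6 stood highest in every library.

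Levels were compared between genes per gene length, as TPM, a length-scaled share of the library's transcripts computed from the counts and the deposited lengths. Anxa8 had 221 and 158 TPM in KO libraries, against 13.6 and 12.6 TPM in WT libraries. In both KO libraries it was the fourth most abundant annexin, and in both WT libraries the seventh. In KO cells the order was Anxa2, Anxa6, Anxa1, Anxa8, Anxa7, Anxa11, Anxa5 and Anxa4, where Anxa11 overlapped with both Anxa7 and Anxa5. In WT cells it was Anxa2, Anxa6, Anxa1, Anxa11, Anxa5, Anxa7, Anxa8 and Anxa4, where Anxa5 and Anxa7 overlapped. Relative to Anxa4, the lowest of the 8, the mean Anxa8 level in TPM was 16.3 times as high in KO and 1.47 times as high in WT.

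As a share of all annexin transcripts (summed TPM of 12 annexin genes), Anxa8 made up 6.25% and 4.26% in KO libraries, against 0.369% and 0.363% in WT libraries. Anxa2 held most, at 52.7% ± 1.73 in KO and 52.5% ± 1.89 in WT (SD, n = 2 each). Anxa6 followed at 25.1% ± 5.16 in KO and 29.2% ± 4.29 in WT. The groups overlapped in the annexin total, which was 3532 and 3701 TPM in KO libraries and 3672 and 3470 TPM in WT libraries. Without Anxa8 it was 3427 ± 164 TPM in KO and 3557 ± 142 TPM in WT.

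**Figure D2:**
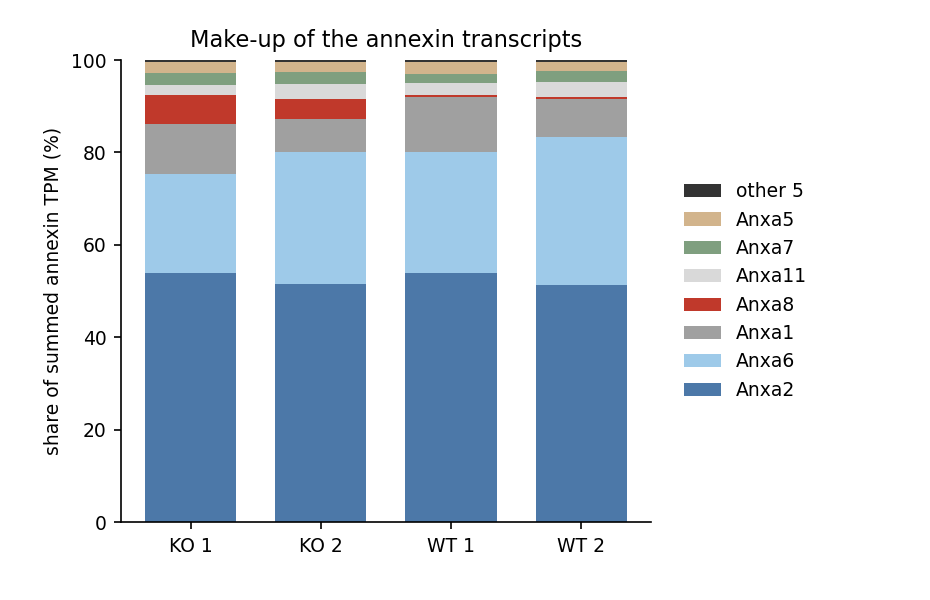
Share of each annexin in the summed annexin TPM (%), 1 bar per library, KO left of WT. The red band is Anxa8, at 6.25% and 4.26% in KO libraries and 0.369% and 0.363% in WT libraries; the band named other 5 holds Anxa3, Anxa4, Anxa9, Anxa10 and Anxa13.

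None of the other annexins passed a test of KO against WT. Of the 7 listed relatives, edgeR's quasi-likelihood test called 0 at an adjusted p under 0.05, and DESeq2 and limma voom also called 0. None had an unadjusted edgeR p under 0.05 either. Over all 12723 tested genes edgeR called 0 (0%) and voom 0, DESeq2 called 71 (0.558%), and 361 genes (2.84%) had an unadjusted edgeR p under 0.05. The median log2 fold change of the 7 was 0.03 (range -0.17 to 0.42), against -0.01 over all tested genes. For 2 of the 7 (Anxa4 and Anxa7) both KO libraries lay above both WT libraries, which held for 9.64% of all tested genes, and for 0 of the 7 they lay below, which held for 11.6% (21.2% for either direction). With 1 library left out, the fold changes of Anxa1, Anxa2, Anxa5 and Anxa11 changed sign, as given with the processing choices. The count over all genes also moved: leaving out KO library 1 gave 33 edgeR calls, leaving out KO library 2 gave 53, and leaving out WT library 2 gave 34 DESeq2 calls, with 0 of the 7 annexins among the calls each time.

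**Figure D3:**
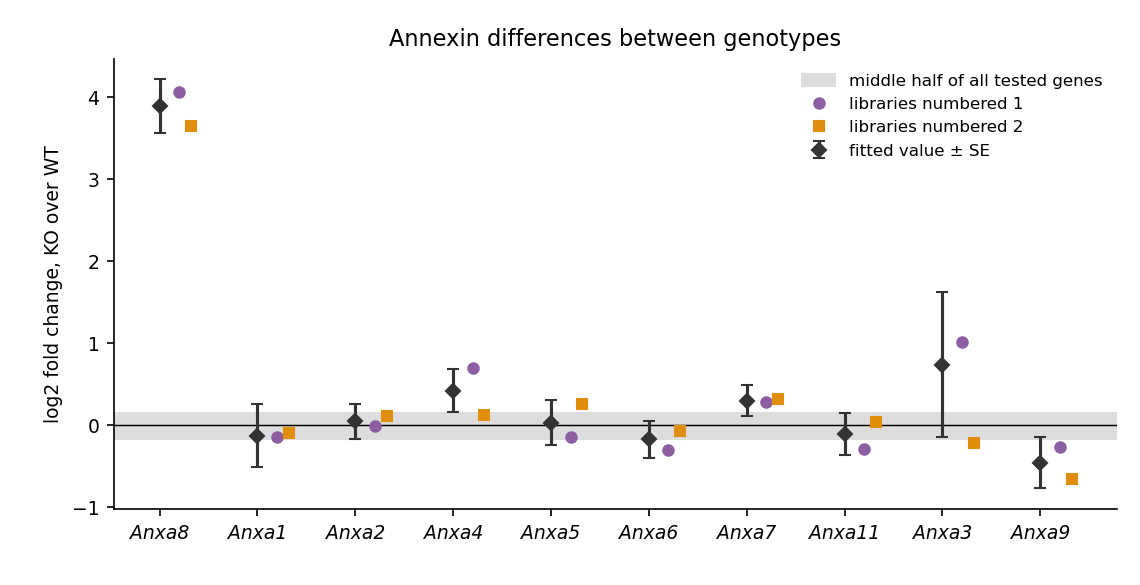
Log2 fold change, KO over WT, for 10 annexin genes: diamonds are fitted values with bars of 1 SE, circles the ratio within libraries numbered 1 and squares within those numbered 2, and the grey band spans -0.163 to 0.147, the interquartile range of all tested genes. Anxa8 stands at 3.89, while the other 7 listed annexins lie between -0.17 and 0.42.

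Anxa2 and Anxa6 are the annexins these NK cells express most. Anxa2, which forms a complex with S100a10 at the plasma membrane and binds plasminogen, stood at 1475 and 1329 CPM in KO libraries and 1483 and 1233 CPM in WT libraries. The groups overlapped, with a log2 fold change of 0.05 (SE 0.21). Anxa6, which organises membrane and cholesterol on endosomes, had 1134 and 1435 CPM in KO and 1394 and 1503 CPM in WT. Those groups overlapped too, with a log2 fold change of -0.17 (SE 0.22). EdgeR's adjusted p was 1.00 for both.

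Anxa1, the formyl peptide receptor ligand, had 302 and 186 CPM in KO libraries and 334 and 200 CPM in WT libraries. It differed more between library numbers than between genotypes: library 1 exceeded library 2 by 0.694 in KO and 0.741 in WT on the log2 scale. The fitted difference between genotypes was -0.13 on the log2 scale (SE 0.38; edgeR adjusted p 1.00). Anxa5, the phosphatidylserine binder, had 79.8 and 70.8 CPM in KO and 88.2 and 59.1 CPM in WT, which overlapped, with a log2 fold change of 0.03 (SE 0.28).

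Anxa7 and Anxa11 carry long amino-terminal extensions and are linked to vesicle traffic, in the case of Anxa11 also to RNA granules riding on lysosomes. Anxa7 had 154 and 150 CPM in KO libraries and 127 and 120 CPM in WT libraries. Its groups did not overlap and its libraries were tight, yet the log2 fold change of 0.30 (SE 0.19) did not pass (edgeR p 0.174, adjusted p 1.00). Anxa11 had 100 and 143 CPM in KO and 123 and 139 CPM in WT, with a log2 fold change of -0.10 (SE 0.26) and overlapping groups. Of the 50-base windows along the coding transcript examined for Anxa11, 28.9% also occur in transcripts of Anxa11os, Gm2260 or Gm2274, so its level is less certain than the others. Gm2260 and Gm2274 had 0 counts in all libraries.

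Anxa4, an annexin of epithelial and secretory cells, was the lowest of the 8 per length in KO and WT. It had 14.3 and 10.8 CPM in KO libraries and 8.80 and 9.90 CPM in WT libraries, so the groups did not overlap. Its fitted difference was 0.42 on the log2 scale (SE 0.26; edgeR p 0.176, adjusted p 1.00). Within the libraries numbered 1 the log2 ratio was 0.69 and within those numbered 2 it was 0.12. For Anxa8, Anxa1, Anxa2, Anxa5, Anxa6 and Anxa7 no 50-base window of the coding transcript examined occurred in another gene, and for Anxa4 1.48% did, with Gm44036. Further coding transcripts of these genes were not examined.

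The other 4 annexin genes of the table were scarce. Anxa3 had 32 and 9 counts in KO libraries and 16 and 12 in WT libraries, with a log2 fold change of 0.74 (SE 0.88). Anxa9 had 127 and 119 counts in KO and 170 and 206 in WT, with both KO libraries below both WT libraries and a log2 fold change of -0.46 (SE 0.31; edgeR p 0.211). Anxa10 had 0 counts in every library and Anxa13 a single count, in WT library 1, so neither was tested.

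The genes beside Anxa8 on chromosome 14 were almost silent. Of the 20 annotated genes nearest to it, 10 on each side, 11 had a row in the table and the other 9 were not analysed here. Of those 11, 10 fell under the filter, with 0 to 5 counts per library. Antxrl, an anthrax toxin receptor-like gene that ends 9.66 kb before Anxa8, had 0 and 0 counts in KO libraries and 1 and 0 in WT libraries. The gene model of A630023A22Rik spans Anxa8 and had 0 and 1 counts in KO and 0 and 0 in WT. Gm5460, the next gene, had 0 and 0 counts in KO and 1 and 0 in WT. On the other side Gm24998, Gm30556 and Gm7778 come first and were not analysed here, and Npy4r, a neuropeptide Y receptor gene, had 0 counts in all libraries. The only neighbour that was tested, the DNA repair gene Shld2 136 kb away, had 250 and 358 counts in KO and 327 and 488 in WT. Its KO libraries lay below its WT libraries in CPM, with a log2 fold change of -0.28 (SE 0.25; edgeR adjusted p 1.00).

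**Figure D4:**
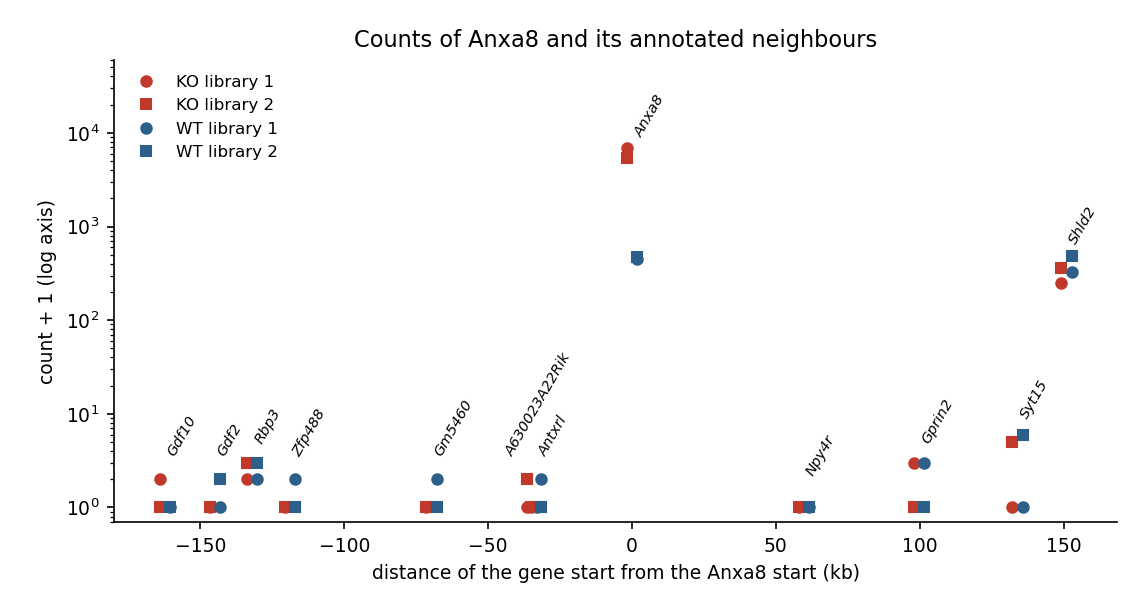
Counts plus 1 (log axis) of Anxa8 and its 11 counted neighbours against the distance of their start from that of Anxa8 (kb), KO in red and WT in blue, circles for library 1 and squares for library 2. Apart from Anxa8 itself, only Shld2 rises above 5 counts.

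Genes whose pattern over the 4 libraries was most like that of Anxa8 were ranked among 9285 genes with a symbol and a mean of at least 5 CPM, by the Euclidean distance of log2(CPM + 0.5) centred on each gene's mean. The closest was Tnni1, a slow skeletal muscle troponin gene, at a distance of 0.286. It had 24.8 and 14.4 CPM in KO libraries and 0.984 and 1.09 CPM in WT libraries, with both KO libraries far above both WT libraries. The next was far behind: Trav14d-1, a T cell receptor segment, at 0.938, with 515 and 176 counts in KO and 0 in both WT libraries. Then came the neutrophil granule gene Lcn2 (1.06), the T cell receptor constant gene Trac (1.10), the lactoferrin gene Ltf (1.10), the Ly49 receptor gene Klra5 (1.12), the repressor gene Bhlhe41 (1.48) and the hemoglobin gene Hba-a2 (1.52). The annexins themselves lay at distances of 3.43 (Anxa4) to 4.06 (Anxa6). These are 4 points with shared depth and were chosen by their values, so the distances carry no test. Trav14d-1, Klra5 and Hba-a2 have near-identical relatives, among which counting can split or lose reads.

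Proteins that work with annexins were listed by function. Of 9 genes for S100 partners, small calcium-binding proteins that dock onto annexin amino termini, and for the giant scaffold Ahnak, 7 were tested. EdgeR and DESeq2 called 0 of the 7 in either direction, beside 0% and 0.558% of all tested genes. All 7 had fold changes above 0, against 6135 of 12723 tested genes. Their median log2 value was 0.27, against -0.01 over all tested genes. The tested S100 genes were 499 to 719 bases long. Genes of up to 1619 bases had a median log2 fold change of 0.07, and those of 4133 bases or more -0.06. The part of gene length in these values was not tested. S100a10, the partner of Anxa2, had 1245 and 918 CPM in KO libraries and 968 and 812 CPM in WT libraries, with a log2 fold change of 0.28 (SE 0.25). The groups overlapped, as did those of S100a6, with 749 and 398 CPM in KO and 524 and 306 CPM in WT. S100a4 had the smallest p of the list (edgeR p 0.139), at 185 and 79.7 CPM in KO and 87.1 and 55.9 CPM in WT. S100a11, the partner of Anxa1, was the one member whose groups did not overlap, at 76.4 and 88.4 CPM in KO and 68.7 and 67.7 CPM in WT, with a log2 fold change of 0.27 (SE 0.20). That 1 of 7 stands beside 9.64% of all tested genes with both KO libraries above both WT libraries. Ahnak differed far more between library numbers than between genotypes, at 134 and 1516 CPM in KO and 188 and 1315 CPM in WT.

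Receptors and enzymes linked to annexins held no call either, where edgeR called 0% and DESeq2 0.558% of all tested genes. At these shares, 0 calls in lists this short do not set their members apart. Of 12 formyl peptide receptor and plasminogen system genes, 4 were tested, with 0 called by edgeR or DESeq2. All 4 had fold changes above 0, against 6135 of 12723 tested genes. Their median log2 value was 1.15, and 3 of them stood below 2 CPM in every library. Plgrkt, a plasminogen receptor gene, had 40.7 and 27.6 CPM in KO and 29.2 and 22.3 CPM in WT, which overlapped. Of the Anxa1 receptor genes, Fpr1 had 0.920 and 0.277 CPM in KO and 0.554 and 0.356 CPM in WT, and Fpr2 had 1.02 and 0.444 CPM in KO and 0.400 and 0 CPM in WT, with no overlap. Plaur, the urokinase receptor gene, had 1.84 and 0.139 CPM in KO and 0.308 and 0 CPM in WT, with a log2 fold change of 2.70 (SE 1.83) and overlapping groups. Annexins were first described as inhibiting phospholipase A2. Of 19 genes for phospholipase A2 and for eicosanoid enzymes, 14 were tested and 0 called by either tool, with a median log2 fold change of 0.12. Lta4h, which makes leukotriene B4, had 384 and 419 CPM in KO and 336 and 328 CPM in WT, with no overlap and a log2 fold change of 0.27 (SE 0.19). Ptges3, the second highest per length, had 30.8 and 24.7 CPM in KO and 28.4 and 28.1 CPM in WT, and Ptgs1 (cyclooxygenase 1) had 27.0 and 27.9 CPM in KO and 32.4 and 30.9 CPM in WT, with no overlap.

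Genes that set the membrane surface annexins bind also held no call, beside 0% (edgeR) and 0.558% (DESeq2) of all tested genes. Of 14 genes for exposing phosphatidylserine, 12 were tested and 0 called by edgeR or DESeq2, with a median log2 fold change of -0.08. The flippase subunit gene Tmem30a had 479 and 352 CPM in KO and 453 and 354 CPM in WT, and Atp11b, a flippase gene, had 312 and 311 CPM in KO and 343 and 338 CPM in WT. The scramblase family gene Plscr4 had the smallest p (edgeR p 0.270), at 46.5 and 56.3 CPM in KO and 69.3 and 56.9 CPM in WT. In 3 of the 12, Atp11b, Plscr3 and Plscr4, the KO libraries were both lower than either WT library, against 11.6% of all tested genes. Of 14 phosphatidylserine receptor and bridging genes, 10 were tested and 0 called, with a median of 0.32. Their median log2 ratio was 0.52 within libraries numbered 1 and -0.05 within those numbered 2. The bridging protein gene Mfge8 had 67.0 and 72.7 CPM in KO and 69.4 and 97.1 CPM in WT. The receptor kinase gene Tyro3 had 10.8 and 14.1 CPM in KO and 5.69 and 11.1 CPM in WT, and Cd300lf, a phosphatidylserine receptor gene, had 5.15 and 9.45 CPM in KO and 9.72 and 6.03 CPM in WT. The groups overlapped for Mfge8, Tyro3 and Cd300lf.

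Of 17 genes for calcium-dependent membrane repair and ESCRT complexes, 14 were tested. Either tool called 0 of them, beside 0% (edgeR) and 0.558% (DESeq2) of all tested genes. Their median log2 fold change was 0.01. The calpain subunit gene Capns1 had 516 and 448 CPM in KO and 546 and 515 CPM in WT, and Sri, the gene of sorcin, a calcium sensor that binds Anxa7, had 359 and 311 CPM in KO and 375 and 293 CPM in WT. Chmp1a, an ESCRT gene, had the smallest p (edgeR p 0.436), at 281 and 240 CPM in KO and 330 and 266 CPM in WT. Copines are another family of calcium-dependent membrane binders, and of their 9 genes 5 were tested and 0 called, with a median of -0.10. Cpne1 had 498 and 378 CPM in KO and 529 and 450 CPM in WT, Cpne3 had 157 and 187 CPM in KO and 186 and 182 CPM in WT, and Cpne2, at the smallest p (edgeR p 0.198), had 1.98 and 0.970 CPM in KO and 2.31 and 2.70 CPM in WT.

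Anxa8 is known from epithelia, so epithelial genes were read in the same libraries. Of 17 listed, 3 passed the filter and 0 were called by edgeR or DESeq2, beside 0% and 0.558% of all tested genes. The 16 other than Sfn summed to 1.64 and 0.970 CPM in KO libraries and 1.23 and 0.840 CPM in WT libraries. None of these 16 exceeded 0.682 CPM in any library, and Elf3 had 0 counts in all. Epcam, the highest of them in KO, had 0.682 and 0.305 CPM in KO and 0.277 and 0.0254 CPM in WT. Sfn, a 14-3-3 protein gene, had 4.70 and 18.0 CPM in KO and 8.03 and 19.1 CPM in WT. The part of epithelial cells in the Anxa8 difference was not tested.

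Among markers of other blood cells, DESeq2 called 8 genes higher in KO cells, and edgeR called 0. All 14 neutrophil and granulocyte precursor genes had fold changes above 0, against 6135 of 12723 tested genes. Their median log2 value was 4.11, but the members were uneven. Retnlg, Csf3r, Cxcr2, Mmp8 and Mmp9 overlapped between genotypes, at log2 fold changes of 0.17 (Csf3r) to 1.50 (Mmp8). In 9 of the 14 both KO libraries lay above both WT libraries, against 9.64% of all tested genes. Their summed level was 465 and 103 CPM in KO and 42.8 and 2.34 CPM in WT, and no member was at 0 in all libraries. DESeq2 called 4 higher (Lcn2, Mpo, Elane and Prtn3, all granule protein genes), against 0.377% of all tested genes called higher. EdgeR called 0, with 6 at an unadjusted p under 0.05 against 1.70% of all tested genes higher at that p. Mpo, Elane and Prtn3 had at most 8 counts in either WT library. They passed the filter on low counts through the KO libraries only, so these counts are no test of an excess over the shares of all tested genes. Mpo, the myeloperoxidase gene, had the smallest p (edgeR p 0.00709), at 11.3 and 2.97 CPM in KO and 0.246 and 0.0254 CPM in WT. The most abundant per length, S100a8, had 118 and 22.3 CPM in KO and 9.93 and 0.687 CPM in WT, followed by S100a9 with 122 and 22.3 CPM in KO and 10.5 and 0.534 CPM in WT. The neutrophil sum was 4.54 times as high in library 1 as in library 2 in KO and 18.3 times in WT, where the level of Anxa8 was 1.55 times as high in KO and 1.16 times in WT. The part of neutrophil-lineage cells in the Anxa8 difference was not tested.

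Erythroid and platelet genes summed to 209 and 124 CPM in KO and 41.7 and 29.9 CPM in WT. Of 12 listed 9 were tested, all with fold changes above 0 (median log2 value 1.88), against 6135 of 12723 tested genes. DESeq2 called 3 higher (Hba-a1, Hba-a2 and Hbb-bs), against 0.377% of all tested genes. EdgeR called 0, with 5 higher at an unadjusted p under 0.05, against 1.70% of all tested genes. Hba-a2 had 70.1 and 53.5 CPM in KO and 13.3 and 10.9 CPM in WT. The erythroid sum was 1.68 times as high in library 1 as in library 2 in KO and 1.40 times in WT. The part of erythroid RNA in the Anxa8 difference was likewise not tested.

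**Figure D5:**
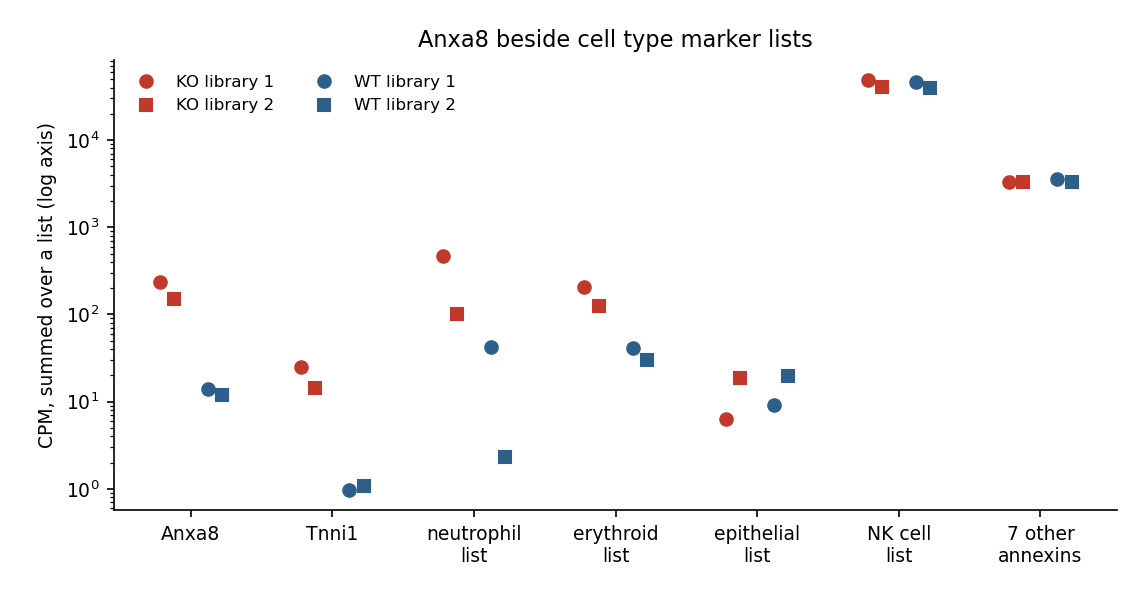
CPM (log axis) of Anxa8 and Tnni1 and summed CPM of marker lists and of the 7 other listed annexins in each library, KO in red left of WT in blue, circles for library 1 and squares for library 2. Anxa8 stands at 233 and 150 CPM in KO libraries and 13.8 and 11.9 CPM in WT libraries, the neutrophil list at 465 and 103 CPM in KO and 42.8 and 2.34 CPM in WT, and the erythroid list at 209 and 124 CPM in KO and 41.7 and 29.9 CPM in WT.

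Of 12 T cell genes 11 were tested, with a median log2 fold change of -0.16. At an unadjusted edgeR p under 0.05, 1 was higher (Trac) and 1 lower (Cd28), against 1.70% and 1.14% of all tested genes. DESeq2 called Trac higher, at 93.9 and 36.0 CPM in KO and 5.87 and 8.30 CPM in WT, and edgeR called 0. The part of T cell RNA in the Anxa8 difference was not tested. The T cell receptor beta constant genes overlapped, Trbc2 at 120 and 65.0 CPM in KO and 121 and 96.9 CPM in WT and Trbc1 at 84.6 and 56.0 CPM in KO and 92.5 and 64.5 CPM in WT. Of 14 monocyte and macrophage genes 13 were tested and 0 called by either tool. Fold changes were above 0 for 12 of the 13 (median log2 value 0.67), against 6135 of 12723 tested genes. Their median log2 ratio was 0.88 within the libraries numbered 1 but -0.21 within those numbered 2. The sums were 946 and 467 CPM in KO and 882 and 419 CPM in WT. Lyz2, with 258 and 18.5 CPM in KO and 92.7 and 3.31 CPM in WT, and Ccr2, with 566 and 415 CPM in KO and 729 and 377 CPM in WT, overlapped between genotypes, and Cd68 had 12.1 and 7.93 CPM in KO and 6.49 and 5.93 CPM in WT (edgeR p 0.0871). Of 10 B and plasma cell genes 9 were tested and 0 called (median 0.30), led by Igkc with 215 and 38.4 CPM in KO and 50.1 and 22.4 CPM in WT and Ighm with 210 and 175 CPM in KO and 177 and 137 CPM in WT. The median log2 ratio of the B and plasma cell list was 0.45 within libraries numbered 1 and -0.19 within those numbered 2. Cd22 had the smallest p of that list (edgeR p 0.110), at 0.477 and 1.30 CPM in KO and 1.69 and 2.77 CPM in WT. Of 12 stromal and endothelial genes 3 were tested and 0 called (median 0.36): Pecam1 had 84.9 and 119 CPM in KO and 69.5 and 89.2 CPM in WT, and Col1a2 (edgeR p 0.0821) had 1.23 and 2.41 CPM in KO and 0.308 and 0.865 CPM in WT. For the lists with 0 called, the shares over all tested genes were 0% (edgeR) and 0.558% (DESeq2).

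The NK cell identity genes themselves did not pass either test, with 0 of 14 called and a median log2 fold change of -0.02. Over all tested genes edgeR called 0% and DESeq2 0.558%. Gzma, the granzyme A gene, was the most abundant per length, at 20474 and 11884 CPM in KO and 17533 and 12320 CPM in WT. Nkg7, a granule membrane protein gene, came next, with 3560 and 3290 CPM in KO and 3977 and 3371 CPM in WT. The groups overlapped for both. Gzmb, the granzyme B gene, had the smallest p (edgeR p 0.0755, adjusted p 1.00), at 2798 and 2686 CPM in KO and 2115 and 1841 CPM in WT. Klrg1, the gene of a sorting marker, had 1410 and 914 CPM in KO and 817 and 740 CPM in WT. For Gzmb and Klrg1, 2 of the 14, both KO libraries lay above both WT libraries, against 9.64% of all tested genes. Over all lists, 151 of 210 genes were tested and edgeR called 0. DESeq2 called 8 of the 151 higher and 0 lower. Of all tested genes it called 0.377% higher and 0.181% lower. The lists were chosen with earlier results of these data known, so these shares are no test of an excess in the lists. All 8 list calls stood in the neutrophil, erythroid and T cell lists. The lists of annexin partners, receptors, enzymes and membrane genes held 0 of those 8. The counts of calls among list members and over all genes moved with the processing, also when 1 library was left out. Both counts are given side by side with the processing choices.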

How the data were processed

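The authors deposited raw read counts per Entrez gene beside a gene length, per the file headers. Per the submitters' processing notes, featureCounts and the mm10 build were used; versions, aligner and strand setting are not given in the sources used here, so overlapping genes on opposite strands may share reads. Of 26611 gene numbers, 25275 (95%) matched a RefSeq symbol, and 0 table columns were left without a sample. Genes were kept with filterByExpr (minimum count 10) and tested in R 4.3.3 with edgeR 4.0.16 (quasi-likelihood, robust, TMM scaling, genotype only), Benjamini-Hochberg adjusted over all 12723 genes, threshold 0.05. DESeq2 1.42.0, limma voom 3.58.1, other scalings and filters, the replicate number as a block and each library left out were alternatives. CPM (TMM-scaled) and TPM (from the deposited lengths) were computed here; within-number ratios add 0.1 CPM.

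The members and the gene lists were chosen with earlier results of these data known, and the motifs after the sequences were seen. From each list the text names the calls, the 2 highest genes per length and the smallest p. Promoter windows come from RefSeq and gene models from GENCODE M21. Tests are two-sided and were run first on simulated counts. With 2 libraries a group, an exact permutation test gives at best p = 0.333, so p-values rest on the spread modelled across genes. No library repeated another: counts of any pair differed beyond sampling noise (chi-square over its degrees of freedom at least 34.6). A floor of 3 counts covers counting error only.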

Additional observations from a re-analysis of the deposited data

How the results depend on the processing

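Under 15 alternatives 0 of the 7 annexins other than Anxa8 passed an adjusted p of 0.05. The count over all genes was 0 in the main analysis, 35 with no filter on low counts, 71 with DESeq2 and 221 with the replicate number as a block, and 0 with other scalings, with at least 5 CPM or with voom; it was 0 to 53 with 1 library left out, and 52, 74, 50 and 34 with DESeq2 without KO library 1, KO library 2, WT library 1 and WT library 2 (added after seeing the data). The same counts for list members, also added after seeing the data, were 0 in the main analysis, 2, 8 and 14 under the first 3 of these, 0 to 7 with 1 library left out, and 5, 9, 15 and 8 with DESeq2 without these libraries in the same order. The cause was not tested. The labels do not say that a replicate number marks a shared day or litter, yet deviations of libraries numbered 1 from their group means correlated at 0.798 over 12723 genes. With the block, Anxa7 had an adjusted p of 0.38 and was 1 annexin at an unadjusted p under 0.05, and the log2 fold change of Anxa8 was 3.86.

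The log2 fold change of Anxa8 was 3.86 to 3.93 under the 7 other settings and 3.54 to 4.21 with 1 library left out. With 1 library left out it changed sign for Anxa1 (-0.52 to 0.28), Anxa2 (-0.063 to 0.18), Anxa5 (-0.21 to 0.35) and Anxa11 (-0.35 to 0.13), and kept its sign for Anxa4 (0.20 to 0.64), Anxa6 (-0.32 to -0.01) and Anxa7 (0.28 to 0.35). The share of Anxa8 in the annexin sum was 5.48% in KO and 0.375% in WT when counts were not divided by gene length. Other scalings moved the median of all genes by at most 0.0183. The depth limits Anxa3, Anxa9, Anxa10 and Anxa13, at up to 206 counts.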
